A study of Mus musculus with 4 samples.

Results

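Plasminogen activation was described in primary rib chondrocytes through 6 genes, which were Plau, Plat, Plaur, Serpine2, Serpinb8 and Serpinf1. They were taken by symbol from the 18298 genes that had a read in at least 1 library, and all 6 had reads in all 4 libraries. They were put together as secretory senescence genes and chosen by symbol with the counts and RPKM of Mut and WT in these same libraries already known, so their differences between the genotypes are given as a description, without a test. All 6 passed the filter on low counts, at least 10 counts in at least 2 libraries.

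The cells were cultured from the rib cartilage of E18.5 mouse embryos on a C57BL/6 background and were used at passage 1. The mutant group was Dermo1-Cre;Senp6f/f (Mut, n = 2) and the control group was Senp6f/f without the Cre (WT, n = 2), so the floxed Senp6 allele was present in both groups. Dermo1-Cre is a recombinase made from the Dermo1 (Twist2) locus, which is active in mesenchymal progenitors of bone and cartilage, and it removes the floxed exons of the gene for SENP6, a protease that takes SUMO chains off proteins. RNA-seq gave between 21.0M and 31.0M reads on genes per library (M, 1e6 reads). The paper describes n in its in vitro work as a count of biological replicates. The sources used here do not name the embryos or litters behind each replicate. What part of the spread between replicates is technical is therefore not known.

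Senp6 itself had an RPKM (reads per kilobase of gene and per M reads) of 10.8 and 18.0 in WT replicates 1 and 2 and of 12.02 and 8.07 in Mut replicates 1 and 2. The groups overlapped, and because the count covers the whole gene it does not separate transcripts with and without the deleted exons. Xist, the RNA that coats the inactive X chromosome of female cells, was read 11354 times in Mut replicate 2 and between 2 and 5 times in the other libraries. Mut replicates 1 and 2 were therefore not the cells of 1 and the same embryo. Mut replicate 2 stood apart, and the genotypes are compared without it after the other results. Of the markers of chondrocytes, Col2a1, Acan and Sox9 were read in every library, and the summed RPKM of the 11 listed chondrocyte markers with reads was 985 and 1009 in WT and 508 and 636 in Mut.

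Plasminogen is a circulating zymogen that is cut to plasmin, a serine protease that digests fibrin and matrix proteins and activates growth factors and metalloproteinases. The cut is made by urokinase (uPA, encoded by Plau), largely at the cell surface on its receptor uPAR (Plaur), and by tissue-type activator (tPA, Plat), largely on fibrin. Serpins, inhibitors that trap a protease through an exposed loop, hold the system back, and activators, receptor and inhibitors are recurrent parts of the secretion of senescent cells. In cartilage and bone the system is known for matrix turnover.

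In these libraries 5 of the 6 genes had higher RPKM in both Mut libraries than in both WT libraries, and Serpinf1 was lower in both. Across all 14123 genes tested, 28.3% were higher in both Mut libraries and 19.2% were lower in both. As a ratio over all 4 libraries the difference was widest for Plau, with a mean RPKM of 69.5 ± 17.0 (SD, n = 2) in Mut and 28.4 ± 11.2 (SD, n = 2) in WT. Without WT replicate 1 the log2 fold change of Plau, 0.92, was below those of Serpinb8, 1.39, and Serpine2, 1.33. The median log2 fold change of the 6 genes was 0.93, and that of all tested genes was 0.01. These shares carry no weight for the 6 genes themselves, which were selected with this contrast in view.

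**Figure D1:**
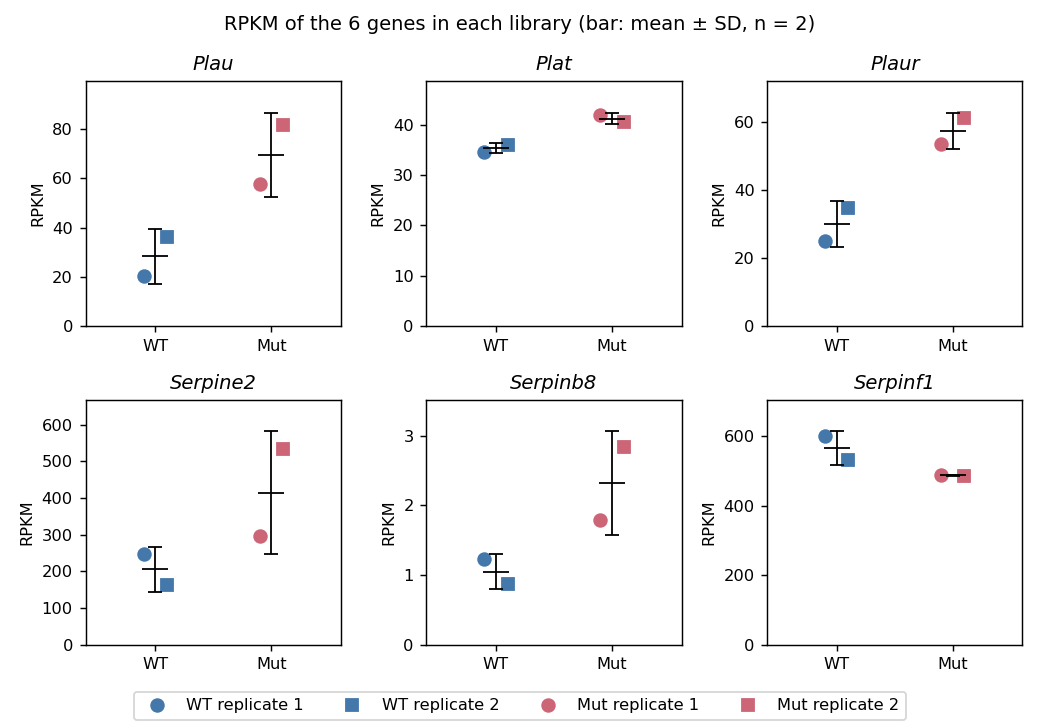
RPKM (vertical axis, starting at 0) of each of the 6 genes in WT and Mut, with circles for replicate 1, squares for replicate 2 and a bar for the mean ± SD of the 2 libraries. Plau runs from 20.5 and 36.3 in WT to 57.5 and 81.5 in Mut, Plat lies between 34.6 and 42.0 in all 4 libraries, and Serpinf1 is the gene with lower values in Mut.

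Plau, the gene of urokinase (Entrez Gene 18792), had an RPKM of 20.5 and 36.3 in WT replicates 1 and 2 and of 57.5 and 81.5 in Mut replicates 1 and 2. Its read counts were 1009 and 2221 in WT and 4178 and 5396 in Mut. Both Mut values lay above both WT values, and the lower Mut value was 1.59 times the higher WT value. Within each genotype replicate 2 was the higher library, by 1.77-fold in WT and 1.42-fold in Mut. The fitted log2 fold change was 1.25 (SE 0.28), and the ratio of the mean RPKM was 2.45. Among all genes with a read, Plau stood above 79.3% and 87.4% of them in the WT libraries and above 92.8% and 95.1% in the Mut libraries.

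Plat, the gene of the other activator (Entrez Gene 18791), was nearly level. It had an RPKM of 34.6 and 36.0 in WT replicates 1 and 2 and of 42.0 and 40.4 in Mut replicates 1 and 2. The groups did not overlap, and the lower Mut value was 1.12 times the higher WT value. The fitted log2 fold change was 0.18 (SE 0.12). Plat had the closest WT replicates of the 6 genes, with an SD of 2.81% of the mean in WT, and its SD was 2.65% of the mean in Mut.

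The balance of the activators within a library therefore differed between the groups. Plau was at 0.592 and 1.01 times the RPKM of Plat in WT replicates 1 and 2, and at 1.37 and 2.02 times in Mut replicates 1 and 2. Urokinase transcripts were thus below or level with those of tPA in the control cultures and above them in both mutant cultures, per length of gene. With 2 libraries against 2, an exact two-sided permutation test of a single value cannot give a p below 0.333, so no test of this ratio was made.

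Plaur, the gene of the urokinase receptor (Entrez Gene 18793), is anchored to the outer face of the plasma membrane. It had an RPKM of 25.2 and 34.9 in WT replicates 1 and 2 and of 53.7 and 61.2 in Mut replicates 1 and 2. Both Mut libraries were above both WT libraries, and replicate 2 was the higher library in each genotype, as for Plau. The fitted log2 fold change was 0.89 (SE 0.17), and the mean RPKM in Mut was 57.5 ± 5.29 (SD, n = 2) against 30.1 ± 6.88 (SD, n = 2) in WT. Ligand and receptor were near each other in level, with the RPKM of Plau 0.814 and 1.04 times that of Plaur in WT and 1.07 and 1.33 times in Mut. Like the ratio of Plau to Plat, this ratio was higher in both Mut libraries than in both WT libraries, here by a narrow gap. The promoter of Plaur is shown because it holds an AP-1 motif, the letters TGANTCA that Jun and Fos proteins bind. It covers chr7:24462233-24462532 on the forward strand of GRCm38.p6, from 250 bases before to 50 bases after the RefSeq start site, and the motif, in capitals, begins 69 bases before the start.
Plaur: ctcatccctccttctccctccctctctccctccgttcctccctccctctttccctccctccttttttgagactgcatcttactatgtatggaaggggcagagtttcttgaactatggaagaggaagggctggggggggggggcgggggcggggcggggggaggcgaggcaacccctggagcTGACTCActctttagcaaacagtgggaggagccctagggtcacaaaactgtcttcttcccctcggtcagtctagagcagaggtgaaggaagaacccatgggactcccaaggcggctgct

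Serpine2 encodes protease nexin-1 (Entrez Gene 20720), a secreted serpin that inhibits thrombin, urokinase and plasmin and binds glycosaminoglycans of the matrix. It had an RPKM of 248 and 162 in WT replicates 1 and 2 and of 296 and 532 in Mut replicates 1 and 2. The Mut libraries were both above the WT libraries, but the lower Mut value was only 1.19 times the higher WT value. The Mut libraries differed from each other by 1.80-fold, the widest gap between Mut replicates of the 6 genes. The fitted log2 fold change was 0.96 (SE 0.32). Unlike Plau and Plaur, Serpine2 was higher in WT replicate 1 than in WT replicate 2, by 1.53-fold. Its promoter is shown as a contrast to that of Plaur. It covers chr1:79858616-79858915 on the reverse strand of GRCm38.p6, holds no TGANTCA, and has 6 matches to the GC box GGGCGG in a window that is 77.7% G and C.
Serpine2: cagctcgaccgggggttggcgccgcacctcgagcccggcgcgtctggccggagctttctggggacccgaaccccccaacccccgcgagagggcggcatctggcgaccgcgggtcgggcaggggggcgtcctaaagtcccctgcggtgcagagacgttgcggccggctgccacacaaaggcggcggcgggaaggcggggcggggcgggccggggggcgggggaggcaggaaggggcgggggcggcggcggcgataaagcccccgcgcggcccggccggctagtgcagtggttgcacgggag

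Serpinb8 (Entrez Gene 20725) encodes a serpin of clade B, a group that lacks a classical signal peptide, and it is known chiefly as an inhibitor of furin. The annotation deposited with the counts places it in the cytoplasm, whereas it places Plau, Plat, Serpine2 and Serpinf1 in the extracellular region and Plaur in the membrane. It was the least abundant of the 6 genes, with an RPKM of 1.22 and 0.871 in WT replicates 1 and 2 and of 1.79 and 2.84 in Mut replicates 1 and 2. These values rest on 79, 70, 171 and 247 reads. The exact Poisson 95% interval of the RPKM, which covers counting error only, was 0.968 to 1.52 in WT replicate 1 and 1.54 to 2.08 in Mut replicate 1, the nearest libraries of the groups. The fitted log2 fold change was 1.10 (SE 0.32). The share of the gene length covered by reads was 75.9% and 75.4% in WT and 84.2% and 87.9% in Mut, and it was at least 92.2% for the other 5 genes in every library. The promoter is shown because it holds 2 AP-1 motifs, in capitals, which begin 23 bases before and 13 bases after the start site, within chr1:107589756-107590055 on the forward strand of GRCm38.p6.
Serpinb8: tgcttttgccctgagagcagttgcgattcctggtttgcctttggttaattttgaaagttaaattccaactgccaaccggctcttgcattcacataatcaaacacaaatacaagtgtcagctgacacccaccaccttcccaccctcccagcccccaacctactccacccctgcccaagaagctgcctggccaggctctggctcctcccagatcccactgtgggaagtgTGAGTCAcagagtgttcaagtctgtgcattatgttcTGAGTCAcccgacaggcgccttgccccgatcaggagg

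Serpinf1 encodes pigment epithelium-derived factor (Entrez Gene 20317), a secreted serpin that does not inhibit proteases and is known as an inhibitor of blood vessel growth and as a factor in bone mineralization. It had an RPKM of 599 and 532 in WT replicates 1 and 2 and of 489 and 485 in Mut replicates 1 and 2. Both Mut values were below both WT values, and the higher Mut value was 0.919 times the lower WT value. The Mut replicates differed by 1.01-fold. The fitted log2 fold change was -0.26 (SE 0.14). Its promoter is shown as that of the gene with lower values in Mut. It covers chr11:75422574-75422873 on the reverse strand of GRCm38.p6 and matched none of the motifs searched, which are named with their background after the levels.
Serpinf1: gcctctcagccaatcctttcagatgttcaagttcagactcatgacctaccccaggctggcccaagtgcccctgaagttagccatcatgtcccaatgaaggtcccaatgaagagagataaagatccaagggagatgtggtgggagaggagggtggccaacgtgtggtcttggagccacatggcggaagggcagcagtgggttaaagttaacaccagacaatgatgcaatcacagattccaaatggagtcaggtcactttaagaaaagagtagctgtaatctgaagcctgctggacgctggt

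By level, Serpinf1 and Serpine2 dominated. In WT the order of RPKM was Serpinf1, then Serpine2, then Plat, Plaur and Plau with overlapping values, and Serpinb8 last. In Mut the values of Serpine2 (296 and 532) and Serpinf1 (489 and 485) overlapped, those of Plau and Plaur overlapped below them, and Plat followed below both. Serpine2 and Serpinf1 together took between 83.5% and 91.2% of the summed RPKM of the 6 genes in every library. The ratio of Serpine2 to Serpinf1 was 0.414 and 0.304 in WT and 0.605 and 1.10 in Mut. The ratio of Serpine2 to Plau was 12.1 and 4.46 in WT and 5.14 and 6.53 in Mut, so the groups overlapped for this inhibitor and its target protease.

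**Figure D2:**
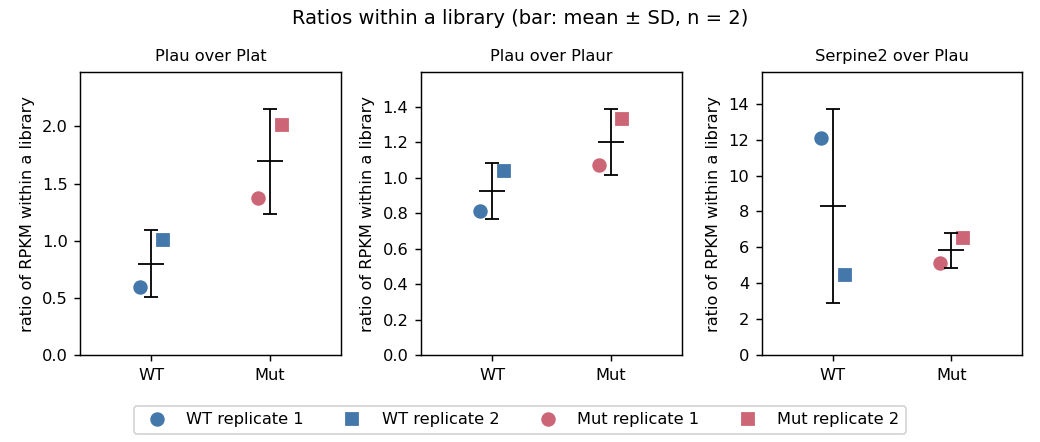
Ratio of RPKM between gene pairs within each library (vertical axes, starting at 0), with circles for replicate 1, squares for replicate 2 and a bar for the mean ± SD of the 2 libraries. Plau over Plat is 0.592 and 1.01 in WT and 1.37 and 2.02 in Mut, Plau over Plaur is 0.814 and 1.04 in WT and 1.07 and 1.33 in Mut, and Serpine2 over Plau overlaps between the groups.

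The replicates of a genotype also differed, and not in the same way for each gene. In WT, Plau and Plaur were higher in replicate 2, Serpine2 and Serpinb8 were higher in replicate 1, and Plat differed by 0.06 on the log2 scale. In Mut, all of Plau, Plaur, Serpine2 and Serpinb8 were higher in replicate 2. Profiles over the 4 libraries, each centred on its mean log2(CPM + 1) (CPM, counts per M reads), were compared by their root mean square difference. It was 0.13 between Serpine2 and Serpinb8, 0.25 between Plau and Plaur and 0.55 between Plau and Serpine2. The added 1 compresses the profile of Serpinb8, the least abundant of these genes, so its value is not on equal terms with the others.

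By the same measure over 11642 genes with a mean RPKM of at least 1, the genes nearest to Plau were Tinagl1, a matrix glycoprotein gene, at 0.07, and Thbd, which encodes thrombomodulin, also at 0.07. Thbd had an RPKM of 16.1 and 28.1 in WT replicates 1 and 2 and of 43.3 and 70.1 in Mut replicates 1 and 2. Nearest to Plaur were 4930429B21Rik and Adora2b, an adenosine receptor gene, both at 0.03. Nearest to Serpine2 were Icam1, a leukocyte adhesion molecule gene, at 0.03 and Usp18 at 0.08. Icam1 had an RPKM of 13.5 and 8.92 in WT replicates 1 and 2 and of 16.3 and 30.9 in Mut replicates 1 and 2. Nearest to Serpinb8 were Hist3h2a and Lgals7, both at 0.05, where the added 1 compresses differences because both Serpinb8 and Lgals7 were low. Near-level profiles were common: 1765 genes lay within 0.1 of Plat (nearest Utrn and Gsk3b) and 1551 within 0.1 of Serpinf1 (nearest Pcbp1 and 1110008J03Rik), against 7 for Plau and 4 for Serpine2. The measure runs over 4 libraries and carries no test.

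The promoter table held 4 of the 6 genes, which were Plaur, Serpine2, Serpinb8 and Serpinf1. The motifs searched, on both strands, were AP-1 (TGANTCA), the GC box (GGGCGG), the TATA box (TATAAA) and the consensus sites of NF-κB and of a p53 half-site. TGANTCA covers the same sites on both strands, and its matches did not overlap a match of another motif in these windows. It was present in the windows of Plaur and Serpinb8 and in 7.81% of all 32851 promoter windows of the same length, and 0.46% of windows held at least 2. Plaur had 3 GC boxes, and 35.7% of all windows held at least 1. The TATA box, the NF-κB site and the p53 half-site, present in 13.6%, 4.51% and 8.36% of all windows, had no match in the 4 windows. A match is a description of letters in a window, and no binding was measured.

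Genes of the plasminogen system outside the 6 were taken from a list of 24, of which 21 had reads and 17 could be tested. In edgeR (quasi-likelihood, Benjamini-Hochberg over all genes), 0 of the 17 passed an adjusted p of 0.05 in either direction, as did 0 (0%) of all 14123 genes, whose smallest adjusted p was 0.0512. At an unadjusted p under 0.05 the edgeR test held 2199 genes (15.6%). The median log2 fold change of the 17 was 0.01, with both Mut libraries above both WT libraries for 7 of them and below for 4, beside 28.3% and 19.2% of all tested genes. Plasminogen itself (Plg), F12 and Serpina5 had no read in any library. Serpinb2, Thbd and A2m were among the 4 largest differences of the list.

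Thbd had a log2 fold change of 1.32 (SE 0.30, edgeR adjusted p = 0.120). Thrombomodulin turns thrombin towards activation of protein C. Serpinb2, which encodes PAI-2, was read 0 and 2 times in WT and 20 and 117 times in Mut (edgeR adjusted p = 0.125), so Mut replicate 2 held most of its reads. A2m, which encodes the broad protease trap alpha-2-macroglobulin, was at or below 0.823 RPKM and had a log2 fold change of 0.69 (SE 0.32, edgeR adjusted p = 0.371).

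With DESeq2, Thbd and Serpinb2 passed an adjusted p of 0.05 (0.000276 and 0.00184), in a table where 3.07% of genes were called higher and 1.86% lower in Mut. Other alternatives were edgeR with the replicate number as a blocking term, where 0.595% of genes were called higher, and edgeR with no minimum count, where 1.23% were. Calls on the 6 genes from these fits are not given, because the genes were chosen with this contrast known.

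Receptors and clearance genes of the system differed in direction, and none passed the edgeR threshold with all 4 libraries. Anxa2 and S100a10, which form a plasminogen-binding complex at the cell surface, had log2 fold changes of 0.01 (SE 0.13, edgeR adjusted p = 0.975) and 0.03 (SE 0.14, edgeR adjusted p = 0.931). Lrp1, the endocytic receptor that clears activators bound to their serpins, had an RPKM between 114 and 122 in all 4 libraries and a log2 fold change of -0.10 (SE 0.13, edgeR adjusted p = 0.769). Plgrkt, a plasminogen receptor gene, and Mrc2, which encodes the collagen receptor uPARAP, had log2 fold changes of -0.34 (SE 0.20, edgeR adjusted p = 0.492) and -0.24 (SE 0.15, edgeR adjusted p = 0.523). Eno1 and Ctsb, with levels of 253 to 303 and 146 to 156 RPKM, overlapped between the groups. Igf2r, at 57.2 to 70.1 RPKM, had a log2 fold change of 0.21 (SE 0.12, edgeR adjusted p = 0.486). Itgav, the integrin chain of the vitronectin receptor, had one of 0.39 (SE 0.14, edgeR adjusted p = 0.248). Vldlr, a further clearance receptor gene named after its values were seen, was lower in both Mut libraries, with a log2 fold change of -0.35 (SE 0.19, edgeR adjusted p = 0.432). Without WT replicate 2 the log2 fold change was 0.505 for Itgav and -0.539 for Vldlr, in a fit that holds 1 WT library. A p above the threshold with 2 libraries a group does not show that these genes were equal.

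**Figure D3:**
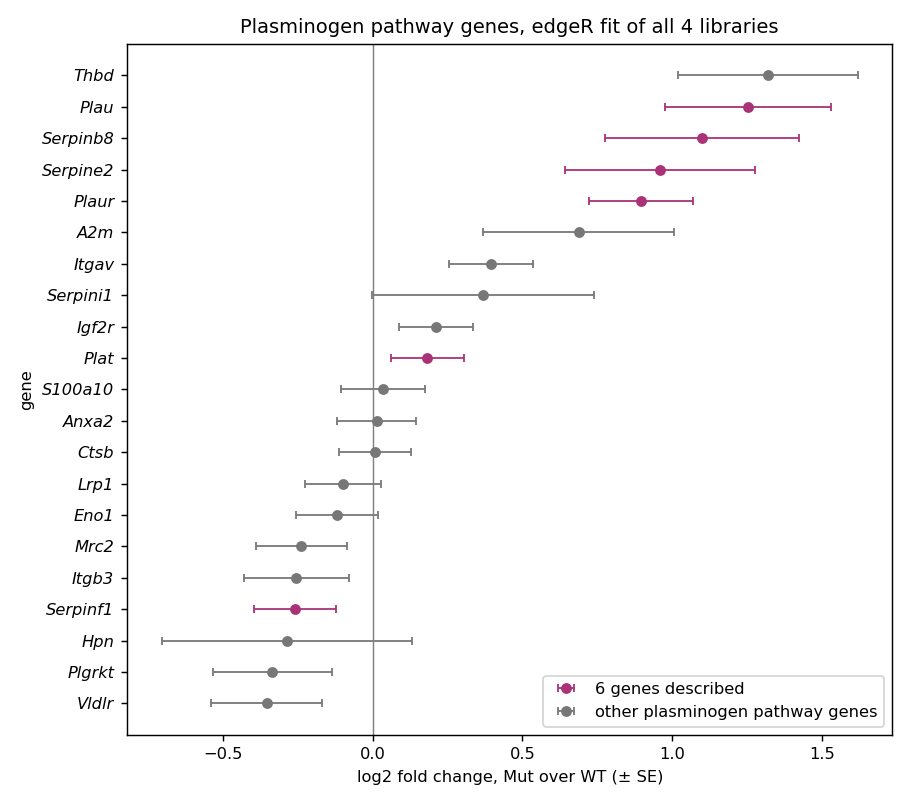
Log2 fold change of Mut over WT with its SE (horizontal axis) for the 6 genes and for the other tested plasminogen pathway genes, ordered by value, for those reported here, without Serpinb2, whose WT libraries held 0 and 2 reads. Thbd (1.32) and Plau (1.25) are at the top, and Anxa2 (0.01) and S100a10 (0.03) are near 0.

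Of 16 listed targets of plasmin, 12 could be tested and 0 passed an adjusted p of 0.05 with edgeR. Thbs1, a matrix glycoprotein that binds and activates latent TGF-β, had a log2 fold change of 1.08 (SE 0.14, edgeR adjusted p = 0.0775). Igfbp5 and Ltbp1 had log2 fold changes of -0.95 (SE 0.32, edgeR adjusted p = 0.227) and 0.54 (SE 0.38, edgeR adjusted p = 0.563). The median of the 12 was 0.10. DESeq2 called 2 of the 12 higher, Thbs1 among them (DESeq2 adjusted p = 6.55e-09), and 1, Igfbp5, lower. It called 3.07% of all genes higher and 1.86% lower. In edgeR without a filter on low counts 2 plasmin targets were higher, where 1.23% of all genes were called higher and 0.333% lower. With the replicate block 1 was higher, where 0.595% of all genes were called higher and 0.234% lower. In both fits 0 plasmin targets were lower. Thbs1 was called in both (edgeR adjusted p = 0.0132 and 0.0416).

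Of 34 other secretory senescence genes with reads, 29 could be tested and 0 passed an adjusted p of 0.05 with edgeR, 14 had both Mut libraries above both WT libraries and 5 had both below, against the same 28.3% and 19.2% of all tested genes. The median log2 fold change was 0.18. Il6, an inflammatory cytokine gene, had a log2 fold change of 2.62 (SE 0.51, edgeR adjusted p = 0.0965), Gdf15, a stress-induced TGF-β family gene, one of 2.19 (SE 0.28, edgeR adjusted p = 0.0775), and Lif and Areg one of 2.10 each (edgeR adjusted p = 0.0852 and 0.234). The chemokine gene Cxcl5, named after its value was seen, had a log2 fold change of -1.22 (SE 0.19, edgeR adjusted p = 0.0833), so the list did not run in a single direction.

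The serpin family was also read as a whole. Of 40 other serpin genes with reads, 17 could be tested, 0 passed an adjusted p of 0.05 with edgeR, 11 had both Mut libraries above both WT libraries and 1, Serpinh1, the collagen chaperone, had both below, where 28.3% of all tested genes were above and 19.2% below. The median log2 fold change was 0.53. Serpinb9b had a log2 fold change of 2.74 (SE 0.42, edgeR adjusted p = 0.0833), Serpinb10 was read 2 and 1 times in WT and 13 and 13 times in Mut (edgeR adjusted p = 0.165), and Serpinb2 was also among the 4 largest differences. Serpinb9 and Serpinb9b belong to a cluster of near copies, where reads may be split between genes, and the same holds for the Serpina3 genes.

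Markers of other cells moved along with the genotype in several lists, and in bulk RNA fewer cells of a type and less RNA per cell cannot be told apart. The counts below stand beside 28.3% of all tested genes higher in both Mut libraries and 19.2% lower in both. All 11 tested chondrocyte markers were lower in both Mut libraries than in both WT libraries (Col2a1 with an RPKM of 609 and 659 in WT and of 334 and 445 in Mut), as were 5 of 5 tested osteoblast markers, with summed RPKM of 187 and 83.3 in WT and 31.9 and 53.5 in Mut. Muscle markers were higher in both Mut libraries for 6 of 10, with summed RPKM of 97.5 and 27.4 in WT and 154 and 179 in Mut. Macrophages make much uPAR, and their 9 listed markers with reads summed to 20.3 and 18.9 RPKM in WT and 11.2 and 16.2 in Mut. Lyz2 carried that difference, with an RPKM of 11.1 and 7.85 in WT and of 2.53 and 4.76 in Mut, and without it, a sum chosen after the values were seen, the groups overlapped at 9.15 and 11.0 in WT and 8.64 and 11.5 in Mut. Of the 6 macrophage markers tested, 3 were lower in both Mut libraries (Csf1r, Emr1 and Lyz2) and 2 were higher in both (Cd14 and Mrc1). Endothelial cells are a main source of tPA and thrombomodulin, and their 8 markers summed to between 1.07 and 1.90 RPKM in every library, with the groups overlapping. Red blood cell markers summed to at most 0.365 RPKM, with Hba-a2, Hbb-b1 and Slc4a1 not listed in any library. Keratinocyte markers summed to between 0.788 and 1.19 RPKM. The part of any of these cell types, macrophages and endothelial cells included, in the differences of the 6 genes was not tested.

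The size of the differences depended on the libraries. With 1 library left out in turn the log2 fold change was between 0.92 and 1.66 for Plau, between 0.70 and 1.09 for Plaur and between 0.14 and 0.23 for Plat. For Serpine2 it was 0.50 without Mut replicate 2, the library with the Xist reads, 0.63 without WT replicate 2, 1.31 without Mut replicate 1 and 1.33 without WT replicate 1. For Serpinb8 it was between 0.75 and 1.39, lowest without Mut replicate 2, and for Serpinf1 between -0.40 and -0.15. Without Mut replicate 2 the values of the other 4 genes were 1.0 for Plau, 0.82 for Plaur, 0.23 for Plat and -0.24 for Serpinf1. Each of the 6 genes kept its direction in these 4 fits. Without that library edgeR called 0.68% of all genes higher and 0.333% lower. No gene of the plasminogen list was among those called. From the lists of secretory senescence genes, other serpins and plasmin targets, those called higher were Lif, Gdf15, Serpinb9b and Thbs1. Their log2 fold changes were 1.81, 1.96, 2.76 and 0.98. Cxcl5 was called lower, with a log2 fold change of -1.41. This fit holds 1 Mut library.

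**Figure D4:**
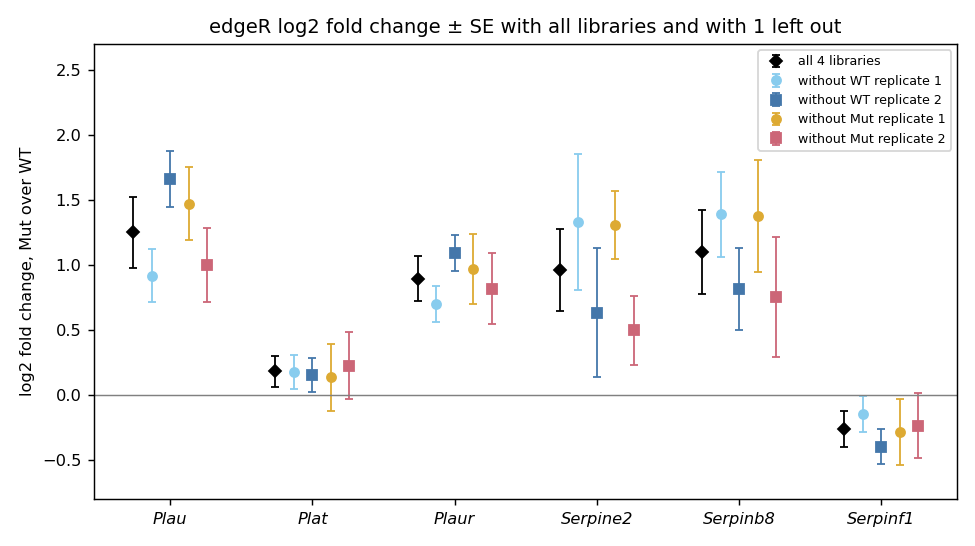
Log2 fold change of Mut over WT ± SE (vertical axis) for the 6 genes, from all 4 libraries (diamonds) and with each library left out in turn (circles and squares). The values of Serpine2 run from 0.50 to 1.33, those of Plau from 0.92 to 1.66, and those of Plat stay between 0.14 and 0.23.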

How the data were processed

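RNA-seq was analysed from 2 Mut and 2 WT libraries, grouped by their titles. The sequencing service mapped the reads for the authors, who deposited for each gene the read count without normalization, the RPKM (count scaled by gene length and library total) and the coverage, the percent of its length with reads. The submitters' processing notes name mm9 and SAMtools. The aligner, counter and annotation are not given in the sources used here. Genes absent from a library were given a count of 0. The deposited RPKM was recomputed from counts and lengths and 0 values differed by more than 1e-06 of their size.

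Counts were tested with edgeR 4.0.16 (quasi-likelihood, TMM, robust; R 4.3.3), keeping a gene where 2 or more libraries held 10 or more counts, with Benjamini-Hochberg adjustment over all 14123. TMM factors were between 0.966 and 1.03. SE was derived from the F statistic. In the shallowest library a 2 kb gene with 10 counts has an RPKM of 0.238, and genes near it are imprecise. Depth was 21.0M to 31.0M reads (M, 1e6). Alternatives were DESeq2 1.42.0, other filters, limma 3.58.1 on log2(RPKM + 1) and log2(RPKM + 0.1), a replicate block, and fits without each library in turn. The scripts were tested on simulated data. The chi-square of counts between replicates over its degrees of freedom was 48.6 in WT and 23.7 in Mut, so each library was counted separately.

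The 6 genes, the gene lists and the motifs were chosen with earlier results of these data known. Named from each list were the genes past the threshold, the 4 with the largest absolute log2 fold change and plasminogen pathway genes over a mean RPKM of 10, with defining markers. Cxcl5, Vldlr and the macrophage markers named singly were added after their values were seen. Of the genes this rule names, 2 are not reported here. Promoter sequences are from RefSeq (GRCm38.p6), which is not the build of the authors, whose files hold no coordinates.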

Additional observations from a re-analysis of the deposited data

How the results depend on the processing

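No alternative changed the direction of any of the 6 genes. Of 60 values under alternatives, 57 moved by less than the spread between replicates. For the fits with 1 library left out this was nearly fixed in advance, since such a fit moves a value by about that spread or less. Serpine2 was counted among the 57 though it fell to 0.50 without Mut replicate 2, because its replicate spread was 0.524. The count therefore does not show that the sizes were stable. The log2 fold change of Serpinb8 was 0.69 with limma on log2(RPKM + 1), where the added 1 shrinks a low gene. With 1 library left out it was between 0.75 and 1.39 for Serpinb8, and between -0.40 and -0.15 for Serpinf1.

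Counts of genes called at an adjusted p of 0.05 changed with the tool and the libraries. They were 0 in each direction with edgeR, and 434 higher and 263 lower with DESeq2, 225 and 61 without a filter on low counts, and 84 and 33 with the replicate block. They were 0 with limma and with at least 10 counts in every library. With 1 library left out they were between 96 and 1331 higher and between 47 and 1492 lower, the most without WT replicate 2. These fits hold 1 library in an arm, which is assumed to vary like the others. The differences between replicates in WT and in Mut correlated at -0.07 over 14123 genes, so no broad shift shared by replicate number was seen. That value cannot tell whether the libraries were paired by litter or culture, and the block rests on a shared number alone.

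Of the plasminogen pathway list, 3 genes were higher with DESeq2 and 3 with the replicate block, and with 1 library left out between 0 and 2 were higher and between 0 and 1 lower. Of the secretory senescence list, 6 were higher and 3 lower with DESeq2, 4 and 1 without a filter, 3 and 1 with the replicate block, and with 1 library left out between 2 and 8 were higher and between 1 and 3 lower. Of the other serpins, 5 were higher with DESeq2, 2 without a filter and 2 with the replicate block, and with 1 library left out between 1 and 4 were higher and between 0 and 2 lower. Over all genes, 3.07% were called higher with DESeq2, 1.23% without a filter and 0.595% with the replicate block. The 6 genes were chosen with this contrast known, so calls on them are not given. The cause of these differences was not tested.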
